A study of Mus musculus with 12 samples.

Results

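The neutrophil granule genes described here are 10 of the 47069 genes in a count matrix of mouse tibia shaft RNA. They were picked by gene symbol, with earlier results of these data known. The early set holds *Elane*, *Mpo* and *Ctsg*, whose proteins fill the azurophil granules of promyelocytes. The later set holds *Ltf*, *Camp*, *Ngp*, *Lcn2*, *Mmp8*, *S100a8* and *S100a9*, whose transcripts belong to the following stages of granulocyte maturation. The name granule genes is kept for all 10, although *S100a8* and *S100a9* encode a protein found mainly in the cytosol. All 10 passed the filter on low counts in each comparison.

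RNA came from tibia shafts of 12 male mice aged 8 weeks, with n = 4 per group, whose marrow was flushed out before extraction, and 1 library was made per mouse. Jrt;Sost-ko mice carry the dominant *Col1a1* Jrt allele, a splice variant that models osteogenesis imperfecta, and lack both copies of *Sost*, which encodes the bone formation inhibitor sclerostin (Col1a1Jrt/+ Sost-/-). Jrt;Sost-het mice are labelled Col1a1Jrt/+, and the study's methods give them 1 functional copy of *Sost*. WT mice carry neither allele. All groups were of mixed FVB/C57BL6 background, but WT mice were bred in a parallel colony. Colony and genotype therefore cannot be told apart wherever WT mice are compared. Numbers 1 to 4 name the mice of a group and pair none of them. Reads counted on genes ranged from 24366061 to 44418863 per mouse. *Sost* CPM (CPM being counts scaled to a common library size with TMM factors of the 12 libraries) was 0.326 to 1.28 in Jrt;Sost-ko mice, against 26.8 to 70.4 for Jrt;Sost-het and 28.5 to 72.3 for WT. Bone markers were present in every library, with *Col1a1* at 8934 CPM or more.

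Neutrophils mature in bone marrow and package their antimicrobial proteins into granules that form in sequence. Promyelocytes make azurophil granules with myeloperoxidase and serine proteases, and myelocytes and metamyelocytes then switch to specific and gelatinase granules with lactoferrin, cathelicidin and matrix metalloproteinases. Each protein is mostly placed by the stage at which its gene is transcribed, so the balance of early and later transcripts is commonly read as the balance of younger and older precursors. In bulk RNA, fewer cells of a type and less RNA per cell cannot be told apart.

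In GRCm38 (GENCODE M21) all 10 genes are protein coding. *Elane* (ENSMUSG00000020125) is a plus-strand gene on chromosome 10, from 79886247 to 79888215. *Mpo* (ENSMUSG00000009350) is a plus-strand gene on chromosome 11, which also carries *Col1a1* and *Sost*, from 87793581 to 87804413. It is the only member that another gene overlaps, the antisense gene *Gm11505*. *Ctsg* (ENSMUSG00000040314) lies on the minus strand of chromosome 14 from 56099881 to 56102574. Later genes shared chromosomes: *Camp* (ENSMUSG00000038357), *Ngp* (ENSMUSG00000032484) and *Ltf* (ENSMUSG00000032496) follow each other on chromosome 9 with gaps of 570129 and 596258 bp. *Camp* spans 109847379 to 109849617 (minus strand), *Ngp* 110419747 to 110423012 and *Ltf* 111019271 to 111042767 (both plus strand). *Mmp8* (ENSMUSG00000005800) lies on the plus strand far off on the same chromosome, from 7558456 to 7568485. *S100a8* (ENSMUSG00000056054) and *S100a9* (ENSMUSG00000056071) lie 22596 bp apart on chromosome 3, *S100a8* on the plus strand from 90668978 to 90670035 and *S100a9* on the minus strand from 90692632 to 90695721. *Lcn2* (ENSMUSG00000026822) lies on the minus strand of chromosome 2 from 32384633 to 32388252.

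The letters before the gene starts are shown because motif matches in them fell unevenly over the early and the later set. Windows of 250 bases before the RefSeq start (GRCm38.p6) were found for all 10 genes. The motif AGGAAGT, the core of a site for ETS family factors such as PU.1, was searched on both strands and stood in 3 of 3 early and 2 of 7 later windows (*Mmp8* and *S100a8*), against 7.69% of 32851 windows of all genes. The motif TTNCNNAA, a loose form of the site for C/EBP family factors, stood on either strand in 0 of 3 early and 6 of 7 later windows (all but *Camp*), against 36.8% of all windows. The motif TATAAA was searched on the forward strand and stood in 0 of 3 early and 1 of 7 later windows (*S100a8*), against 7.59%. None of the 17 matches overlapped another. The motifs were picked with the letters in view, and a match describes letters, not binding. Below, the stretch of each window that precedes the GENCODE gene is written 5′ to 3′ on the gene's strand, with the AGGAAGT and TTNCNNAA matches of either strand in capitals. Matches past the start of the GENCODE gene are not shown. *Mpo* at chr11:87793534-87793580, *Elane* at chr10:79886062-79886246 and *Ctsg* at chr14:56102575-56102824 show AGGAAGT. *Ngp* at chr9:110419558-110419746 and *Ltf* at chr9:111019042-111019270 show TTNCNNAA, as does *S100a9* at chr3:90695722-90695971. Not printed are *Mmp8* and *S100a8*, whose windows held both motifs, *Camp*, whose window held neither, and *Lcn2*.
Elane: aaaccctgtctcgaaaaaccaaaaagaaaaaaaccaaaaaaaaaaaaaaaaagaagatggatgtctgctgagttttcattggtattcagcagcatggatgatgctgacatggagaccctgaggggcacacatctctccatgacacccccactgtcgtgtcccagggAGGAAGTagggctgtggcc
Mpo: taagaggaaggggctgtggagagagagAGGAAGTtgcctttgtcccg
Ctsg: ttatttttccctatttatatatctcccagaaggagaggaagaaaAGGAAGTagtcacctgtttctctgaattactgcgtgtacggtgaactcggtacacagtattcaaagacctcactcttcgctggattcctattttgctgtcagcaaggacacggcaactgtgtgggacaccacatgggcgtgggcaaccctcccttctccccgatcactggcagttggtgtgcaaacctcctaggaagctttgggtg
Ngp: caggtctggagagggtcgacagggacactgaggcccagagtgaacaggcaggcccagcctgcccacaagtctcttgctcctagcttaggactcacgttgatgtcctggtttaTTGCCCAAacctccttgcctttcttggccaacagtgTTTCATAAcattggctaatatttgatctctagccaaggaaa
Ltf: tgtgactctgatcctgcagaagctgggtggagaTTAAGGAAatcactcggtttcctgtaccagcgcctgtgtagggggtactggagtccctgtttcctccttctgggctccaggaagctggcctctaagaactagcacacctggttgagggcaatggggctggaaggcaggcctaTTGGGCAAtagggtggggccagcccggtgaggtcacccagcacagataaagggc
S100a9: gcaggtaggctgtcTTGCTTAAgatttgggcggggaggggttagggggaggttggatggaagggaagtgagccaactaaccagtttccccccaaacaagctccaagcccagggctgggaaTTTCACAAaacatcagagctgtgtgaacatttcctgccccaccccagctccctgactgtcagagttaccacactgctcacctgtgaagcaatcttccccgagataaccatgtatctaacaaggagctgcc

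Transcript levels per kb of exon gave an order of the members that most neighbouring pairs kept in every mouse. The exon length is a fixed divisor for each gene, so the order also depends on the length used. In CPM without this divisor, *Lcn2* averaged 1143, *Elane* 554 and *Mpo* 1490 over the 12 mice. *S100a9* and *S100a8*, which encode the subunits of the calcium-binding protein calprotectin, had the highest levels, with means of 10138 ± 1896 and 6075 ± 1153 CPM per kb (SD, n = 12 mice). *Ngp*, which encodes neutrophilic granule protein, followed at 4078 ± 765 CPM per kb. *Camp*, the cathelicidin gene, reached 1734 ± 334, and *Ltf*, the lactoferrin gene, 903 ± 169 CPM per kb. The highest early gene per kb was *Elane*, which encodes neutrophil elastase, at 563 ± 86.2 CPM per kb. *Lcn2* (lipocalin 2, which binds iron-carrying siderophores) had 436 ± 83.8 CPM per kb and *Mpo* (myeloperoxidase) 435 ± 55.1. *Mmp8* (neutrophil collagenase) and *Ctsg* (cathepsin G) were lowest, at 174 ± 36.4 and 173 ± 23.9 CPM per kb. Of the 9 neighbouring pairs in this order, 7 kept it in 12 of 12 mice. *Lcn2* and *Mpo* stood in this order in 6 of 12 mice, as did *Mmp8* and *Ctsg*, so per kb these pairs had no steady order. This rests on the exon length used. In CPM, *Mpo* was above *Lcn2* in every mouse. *Mmp8* was likewise above *Ctsg* in every mouse, with means of 421 and 179 CPM. Together the 10 genes took between 1.61% (WT 4) and 3.12% (WT 2) of the reads counted on genes.

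Among the early genes, the groups overlapped throughout. *Elane* was at 636, 647, 629 and 506 CPM in WT mice 1 to 4, at 460, 613, 571 and 426 CPM among Jrt;Sost-het mice and at 528, 623, 412 and 593 CPM in Jrt;Sost-ko mice. WT mice 1 to 3 were close to each other, whereas WT 4, Jrt;Sost-het 1 and 4 and Jrt;Sost-ko 3 were low. *Mpo* was at 1662, 1769, 1606 and 1374 CPM in WT mice, at 1245, 1659, 1522 and 1214 CPM among Jrt;Sost-het mice and at 1475, 1626, 1221 and 1503 CPM in Jrt;Sost-ko mice. *Ctsg* was at 205, 198, 199 and 167 CPM in WT mice, at 140, 202, 187 and 146 CPM among Jrt;Sost-het mice and at 176, 195, 140 and 193 CPM in Jrt;Sost-ko mice. The same 4 mice were the lowest for both genes. Over all 12 mice the highest value was 1.46 to 1.57 times the lowest for these 3 genes.

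The later genes ranged wider, with highest values 1.86 to 2.18 times the lowest, and both ends of their range lay mostly in the WT group. *Ltf* was at 3496, 4181, 3175 and 2063 CPM in WT mice 1 to 4, at 2761, 3397, 3633 and 2979 CPM among Jrt;Sost-het mice and at 2913, 3020, 2291 and 3483 CPM in Jrt;Sost-ko mice. *S100a9* was at 6203, 7173, 5352 and 3853 CPM in WT mice, at 4464, 5649, 6179 and 4963 CPM among Jrt;Sost-het mice and at 4727, 5262, 3867 and 5812 CPM in Jrt;Sost-ko mice. WT 2 held the highest value of all 12 mice for each of the 7 later genes. WT 4 held the lowest for 5 of them (*Ltf*, *Ngp*, *Lcn2*, *Mmp8* and *S100a9*), and Jrt;Sost-ko 3 held it for *Camp* and *S100a8*. *Camp*, *Ngp*, *Lcn2* and *S100a8* ranged from 931 to 1846, 3436 to 6858, 748 to 1492 and 3037 to 5838 CPM, and for each of the 7 later genes WT 4 and Jrt;Sost-ko 3 were the lowest mice. *Mmp8* was at 421, 593, 408 and 272 CPM in WT mice, at 327, 476, 478 and 403 CPM among Jrt;Sost-het mice and at 483, 469, 313 and 409 CPM in Jrt;Sost-ko mice. It was the only later gene for which Jrt;Sost-ko 1 rather than 4 was the highest of its group.

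**Figure D1:**
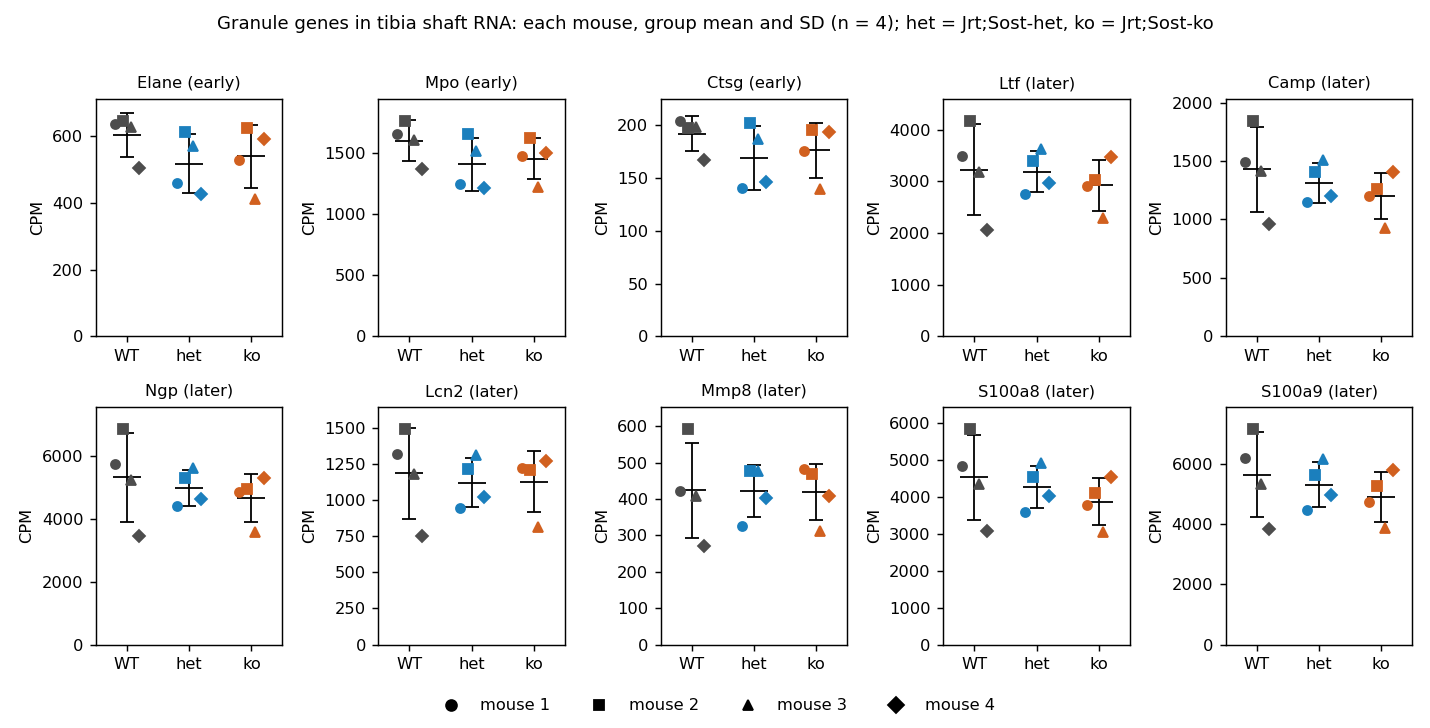
CPM (y axis, from 0) of each granule gene in each mouse, with 1 panel per gene. Groups are on the x axis, symbols mark mice 1 to 4, and bars give the group mean and SD (n = 4). Groups overlap in every panel, and for the later genes WT 2 is at the top and WT 4 near or at the bottom.

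The comparison of Jrt;Sost-ko with Jrt;Sost-het mice asks what loss of the remaining *Sost* copy does on the Jrt background. No granule gene was called in it. By edgeR's quasi-likelihood test with Benjamini-Hochberg adjustment over 16739 genes, 0 of 10 members passed an adjusted p of 0.05, against 0.00597% of all genes tested (*Sost* alone). Their adjusted p lay between 0.904 and 0.995, and 0 of 10 had an unadjusted p under 0.05. Early genes had fitted log2 fold changes of 0.05 to 0.06. *Elane* stood at 0.06 ± 0.16 (SE, n = 4 mice per group, 95% interval -0.29 to 0.41), which spans folds of 0.817 to 1.33. Later genes had log2 fold changes of -0.14 (*S100a8*) to 0.01 (*Lcn2*), with a median of -0.11 beside 0.00130 over all genes. For *S100a8* the interval was -0.48 to 0.20, or folds of 0.719 to 1.15. Ranges of both groups overlapped for all 10 genes, where 3.2% of the genes tested had groups that did not overlap.

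The comparison of Jrt;Sost-het with WT mice called 0 of 10 members and 0 of 16775 genes, or 0% of all genes tested, by edgeR. At an unadjusted p under 0.05 it had 359 genes and 0 members. DESeq2 and limma-voom also called 0 genes. Early genes had log2 fold changes of -0.22 (*Elane*) to -0.18 and later genes of -0.11 (*Camp*) to -0.00109 (*Mmp8*), and the edgeR adjusted p was 0.99998 for each. The interval of *Elane*, -0.52 to 0.09, was narrower than that of *Mmp8*, -0.51 to 0.51. The median was -0.18 for the early and -0.08 for the later set, beside 0.00359 over all genes. Groups overlapped for all 10 genes, against 1.54% of genes without overlap. The fitted direction of the later genes rested on WT 2: without that mouse all 7 had positive log2 fold changes, from 0.04 (*Camp*) to 0.21 (*Mmp8*). Without WT 4 they lay between -0.27 (*Camp*) and -0.17 (*Mmp8*), and without WT mice 3 and 4 between -0.33 (*Camp*) and -0.25, with edgeR adjusted p of 0.277 (*Ngp*) or more.

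Jrt;Sost-ko mice, compared with the same WT mice, gave 0 of 10 members called by edgeR, against 0.00583% of 17155 genes (*Sost* alone). Of all genes tested, 668 and none of the 10 members had an unadjusted p under 0.05. The early genes had log2 fold changes of -0.16 (*Elane*), -0.13 (*Mpo*) and -0.12 (*Ctsg*). Among the later genes *Camp* was at -0.24 ± 0.20 (SE, 95% interval -0.71 to 0.22) and *S100a8* at -0.22 ± 0.21, whereas *Mmp8* was at -0.01 ± 0.23. The median was -0.13 for the early and -0.18 for the later set, beside -0.00302 over all genes. Each adjusted p from edgeR was 0.9996. All 10 genes overlapped between the groups, and 2.4% of the genes tested did not. The log2 fold changes of the later genes in both comparisons with WT share the WT mice and are not separate evidence. WT mice 3 and 4, in which epidermal genes were high, also had the lowest summed later genes of the WT group. These sums were 21103 and 14409 CPM, against 23495 and 27980 CPM in WT 1 and WT 2. Keeping only WT 1 and WT 2, the WT mice with the highest later genes, lowers the log2 fold changes of the later genes by the choice of mice. *Camp* then had the lowest of them, -0.47 in Jrt;Sost-ko against WT. Its adjusted p was 0.368 by edgeR. Whether epidermal RNA had a part in this value was not tested.

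**Figure D2:**
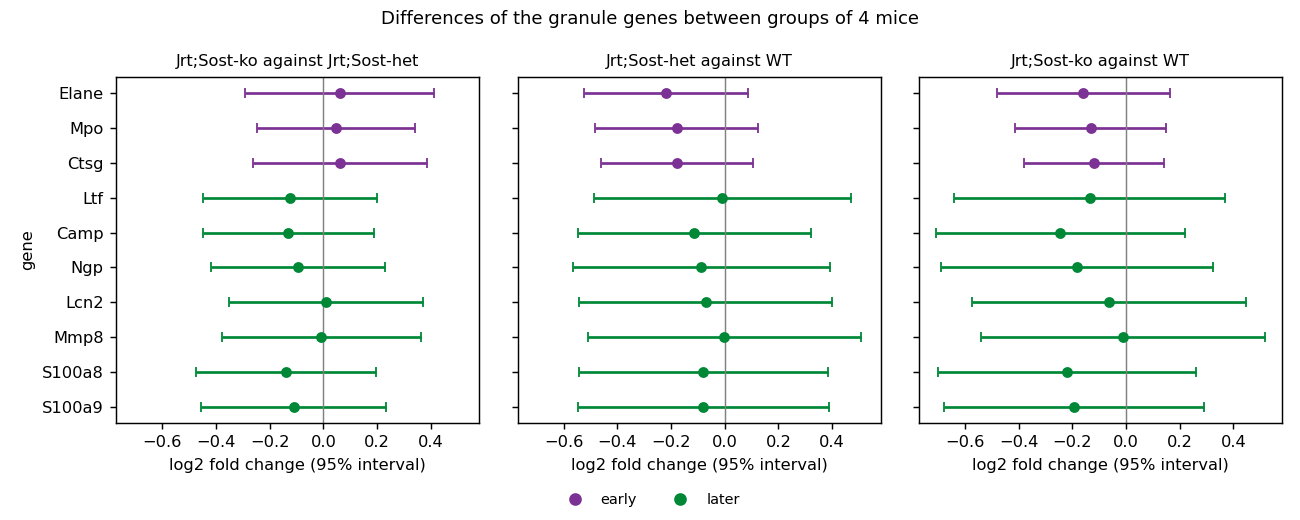
Log2 fold change (x axis) of each granule gene (y axis) in the 3 comparisons, with points for the edgeR estimate, bars for its 95% interval and colours for early and later genes. Every interval crosses 0, and the intervals of the later genes are wider in both comparisons with WT than between the Jrt groups.

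The balance of both sets within a mouse does not depend on library scaling. It was taken as the mean log2 CPM of the 3 early genes minus that of the 7 later genes, and only its differences between mice can be read, since it does not correct for gene length. It was -2.02, -2.28, -1.92 and -1.61 in WT mice 1 to 4, -2.08, -1.98, -2.19 and -2.25 among Jrt;Sost-het mice and -2.02, -1.90, -1.92 and -2.06 in Jrt;Sost-ko mice. WT 4 had the balance tilted most to the early genes and WT 2 most to the later ones, so the WT group alone enclosed all other mice. Group means were -1.96 ± 0.28 in WT, -2.13 ± 0.12 for Jrt;Sost-het and -1.97 ± 0.08 for Jrt;Sost-ko mice (SD, n = 4). Jrt;Sost-ko exceeded Jrt;Sost-het mice by 0.15 on average, with overlapping ranges, and no test was run on this value because the genes were chosen with results of these data known. Without WT 4 the WT mean was -2.07, and without WT 2 it was -1.85. In summed CPM, the later genes were 7.04 times the early genes in WT 4 and 10.7 times in WT 2 and Jrt;Sost-het 4.

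**Figure D3:**
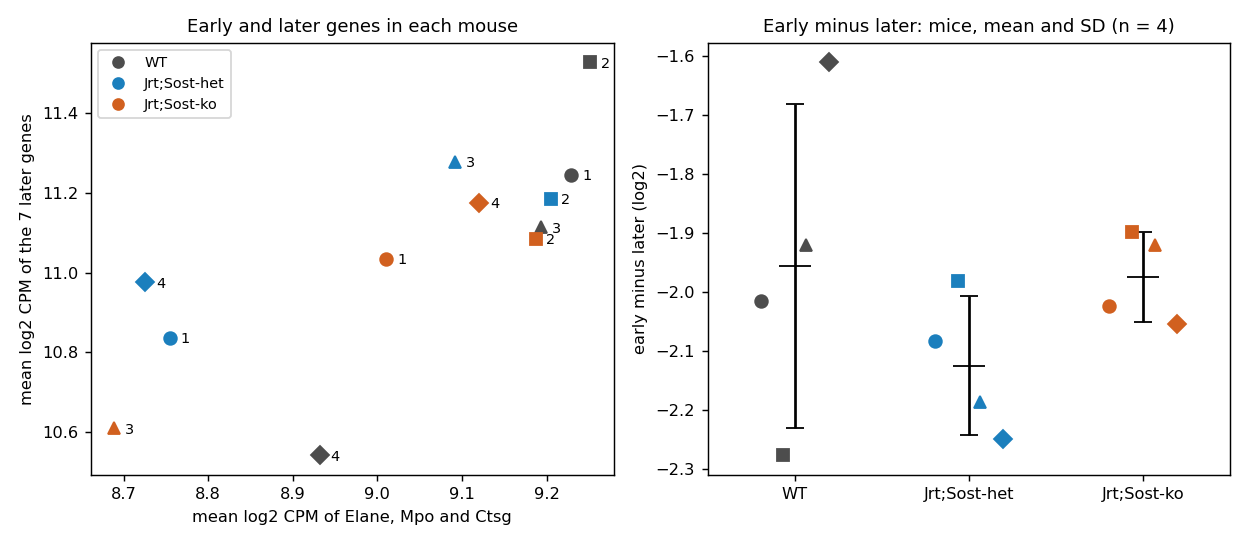
Left, mean log2 CPM of the 7 later genes (y axis) against that of Elane, Mpo and Ctsg (x axis), with 1 point per mouse and its number. Right, early minus later on the log2 scale by group, with mean and SD (n = 4). WT 4 lies below the other mice of like early level, and its difference of -1.61 is the highest of the 12.

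Genes of the same set kept their ratios from mouse to mouse, and genes of different sets did so less. Over the 12 mice the SD of the log2 ratio of a pair was 0.05 to 0.06 for the 3 early pairs and 0.17 to 0.24 for the 21 pairs of an early with a later gene. For the 21 later pairs it was 0.02 to 0.17. The lowest of all 45 pairs was that of *S100a8* and *S100a9*, at 0.02, and the later pairs with the highest SD contained *Mmp8*. Pearson's r of log2 CPM, given as a description over 12 mice whose genes share library and scaling, was 0.962 to 0.976 between early genes, 0.849 to 0.997 between later genes (median 0.972) and 0.651 to 0.795 across the sets (median 0.758). The mean of the early and the mean of the later genes had r = 0.766 over all 12 mice and 0.838 without WT 4. Within the groups of 4 mice it was 0.960 for WT, 0.872 for Jrt;Sost-het and 0.955 for Jrt;Sost-ko.

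**Figure D4:**
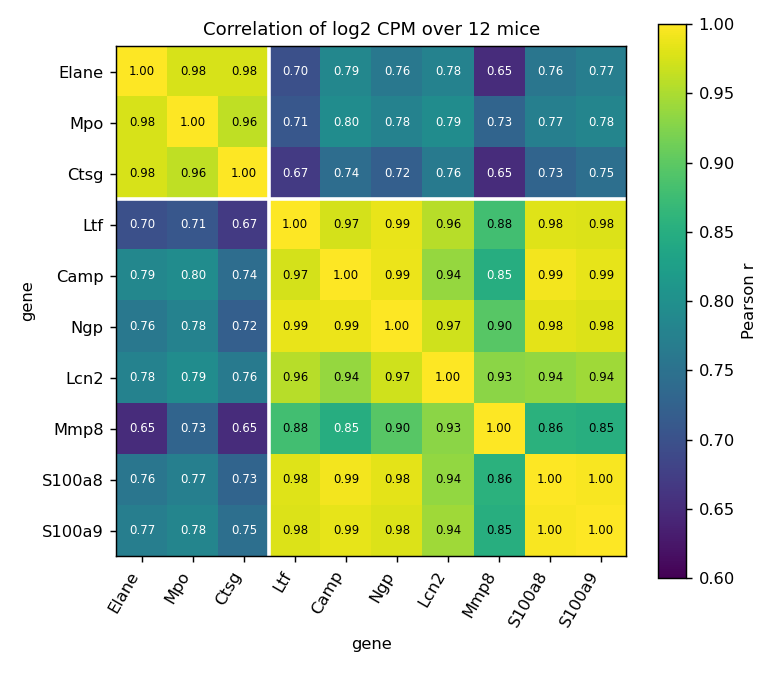
Pearson's r of log2 CPM over 12 mice for each pair of granule genes (colour and number), with white lines between the early and the later set. Values within the sets are 0.849 or higher, and those across the sets are between 0.651 and 0.795.

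Among 17245 genes, those whose log2 CPM was most like the mean of the early set over the 12 mice were *Prtn3* (proteinase 3, another azurophil protease) with r = 0.957, *Gatm* (an enzyme of creatine synthesis) with 0.937, *Nkg7* with 0.925, *Acpp* (an acid phosphatase) with 0.914 and *Prss57* (a neutrophil serine protease) with 0.903. Those most like the later set were *Arhgap9* with r = 0.994, *Nadk* (NAD kinase) with 0.986, *Ncf1* (a subunit of the phagocyte NADPH oxidase) with 0.985, *Myo1f* (a myosin of leukocytes) with 0.984 and *Cd177* (a neutrophil surface glycoprotein) with 0.982. The 10 members, from which both means were taken, were left out before this ranking.

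Further genes of granulocyte maturation were followed as lists, and none held a called gene in any comparison by edgeR. Of 8 further azurophil genes, 7 were tested. *Bpi* had 0 to 0.305 CPM and was not. The median log2 fold change of the 7 was 0.14 with Jrt;Sost-ko set against Jrt;Sost-het, -0.11 for Jrt;Sost-het against WT and 0.01 for Jrt;Sost-ko against WT. *Prtn3* averaged 370 ± 24.4 CPM in WT, 312 ± 54.3 for Jrt;Sost-het and 351 ± 57.9 for Jrt;Sost-ko mice (SD, n = 4). *Ctsc* (cathepsin C, which activates the granule proteases and is also made in many other cells) was at 93.2 to 114 CPM among Jrt;Sost-het mice and at 97.8 to 172 CPM in Jrt;Sost-ko mice, a log2 fold change of 0.43 ± 0.18 (SE) with an edgeR adjusted p of 0.901. It was thus higher on average without passing the test, and Jrt;Sost-ko 1 and 2 held the high values.

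The 10 further specific granule genes had median log2 fold changes of -0.07, -0.05 and -0.15 in the same order of comparisons, and their mean log2 CPM had r = 0.979 with the later set over 12 mice. The 13 genes of mature neutrophils had medians of -0.13, -0.01 and -0.19. Over 12 mice their mean log2 CPM had r = 0.795 with the early and 0.930 with the later set. Against this, *Mmp9*, at 910 to 1323 CPM, had -0.268 and -0.376, and *Il1b* had -0.519 and -0.165. The log2 fold changes of *Il1b* were -0.15, 0.40 and 0.25 in the same order of comparisons, with an edgeR adjusted p of 0.901 or higher in each. Of the 13, 11, 9 and 11 had negative and 2, 4 and 2 positive log2 fold changes. Among them *Csf3r*, the receptor of the granulocyte growth factor G-CSF, was at 268, 301, 277 and 278 CPM among Jrt;Sost-het mice and at 190, 230, 197 and 262 CPM in Jrt;Sost-ko mice. These groups did not overlap, as in 3.2% of the genes tested, and the log2 fold change of -0.35 ± 0.10 (SE) had an edgeR adjusted p of 0.901. *Stfa2l1*, a stefin, was at 15.0 to 19.9 CPM in WT and at 10.7 to 14.6 CPM in Jrt;Sost-ko mice, also without overlap (2.4% of the genes tested), with an adjusted p of 0.9996 by edgeR.

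Of the 8 transcription factors of the granulocyte line, all were tested and none was called. Their medians were 0.05, -0.04 and 0.05. *Cebpe*, which drives the specific granule stage, averaged 90.9 ± 20.1 CPM in WT, 87.0 ± 15.4 for Jrt;Sost-het and 84.1 ± 11.2 for Jrt;Sost-ko mice (SD, n = 4). Over 12 mice the r of the 8 factors with the later set was 0.950 for *Cebpe*, 0.904 for *Spi1*, 0.701 for *Cebpd*, 0.687 for *Gfi1*, 0.358 for *Cebpa*, 0.08 for *Cebpb*, 0.07 for *Myb* and 0.05 for *Runx1*. *Cebpb* was the only factor with an unadjusted p under 0.05, between the Jrt groups. It was at 35.8 to 44.7 CPM among Jrt;Sost-het and 40.6 to 63.9 CPM in Jrt;Sost-ko mice, a log2 fold change of 0.38 ± 0.15 (SE, edgeR adjusted p of 0.901), and the groups overlapped. *Gfi1* averaged 36.0 ± 2.97, 34.4 ± 3.31 and 35.3 ± 4.32 CPM in the 3 groups. Of 6 genes for signals that make or retain neutrophils, 4 were tested, with medians of 0.10, 0.03 and 0.13. The largest log2 fold changes of the 4 were those of *Cxcl1*, 0.19 ± 0.68, 1.34 ± 0.50 and 1.53 ± 0.74 (SE), at only 0.125 to 1.93 CPM. Its unadjusted p by edgeR was 0.0261 in Jrt;Sost-het against WT, and its adjusted p was 0.965 or higher in each comparison. *Csf3*, the gene of G-CSF, had 0 to 0.149 CPM. *Cxcl12*, a chemokine that holds neutrophils in marrow, had 1106 to 1825 CPM.

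Markers of skin, skeletal muscle and bone ranged more widely between libraries than the granule genes did. The 8 keratinocyte markers summed to 141 CPM in WT 3 and 594 CPM in WT 4 against 6.29 to 17.1 CPM in the other 10 mice, and in any library 0 to 3 of the 8 were at 0 counts. Keratinocytes also make *S100a8* and *S100a9*. In WT 4 these genes were lowest or next to lowest, and in WT 3 they were below WT 1 and 2. The 12 skeletal muscle markers ranged from 18.7 CPM (Jrt;Sost-ko 4) to 29358 CPM (WT 4), and in Jrt;Sost-ko relative to Jrt;Sost-het mice all 12 had negative log2 fold changes, with a median of -1.01, but 0 of 12 were called by edgeR. Their SE ranged from 1.13 to 1.39, and 0 of 12 had an unadjusted p under 0.05. Bone-forming cells also make *Lcn2*. The 8 bone markers summed to values from 10139 to 26995 CPM for WT, from 15466 to 27487 for Jrt;Sost-het and from 18735 to 32571 for Jrt;Sost-ko mice. WT 2 had the lowest bone sum and the highest later genes, and Jrt;Sost-ko 3 had the highest bone sum and nearly the lowest later genes. Over 12 mice the mean log2 CPM of the bone list had r = -0.508 with the early and -0.783 with the later set. The muscle list had -0.428 and -0.527. All these values are shares of the total of the same library, and the part of bone, muscle or epidermal RNA in the level of the granule genes was not tested.

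**Figure D5:**
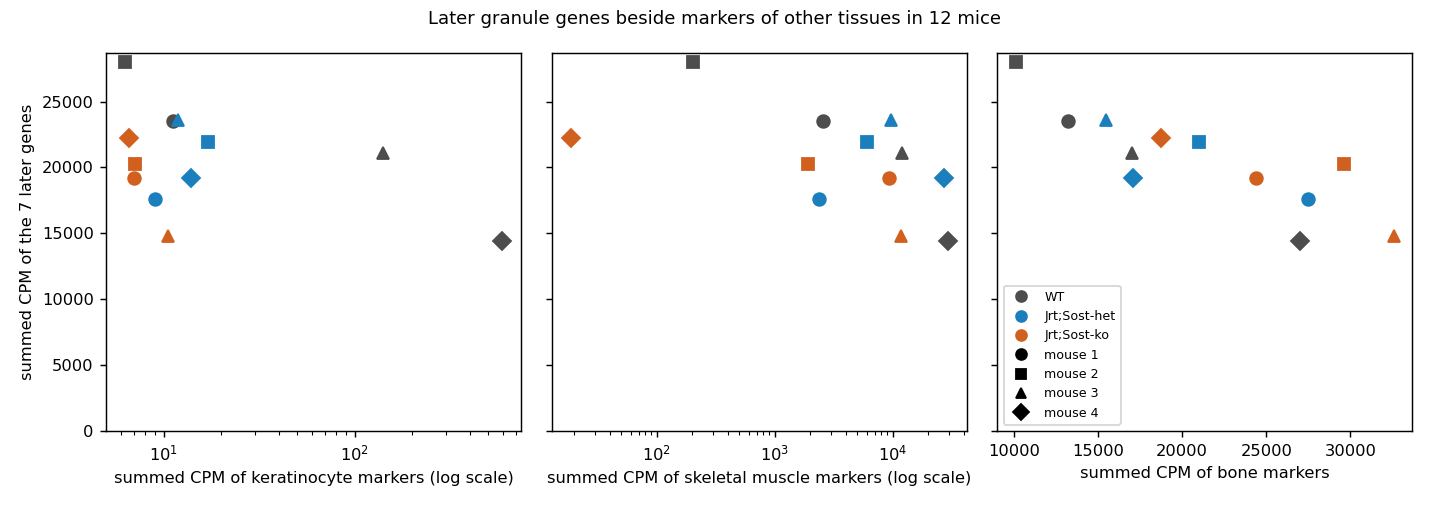
Summed CPM of the 7 later genes (y axis, from 0) against summed CPM of keratinocyte and skeletal muscle markers (log x axes) and of bone markers (linear x axis), with 1 point per mouse, colours for groups and symbols for mice 1 to 4. WT 4 joins low later genes to the highest keratinocyte and muscle sums, and WT 2 joins the highest later genes to the lowest bone sum.

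Markers of other marrow cells had positive r with the granule genes for most lists and negative r for B cells. Over the 12 mice, r with the early and the later set was 0.703 and 0.652 for the 8 monocyte and macrophage markers, 0.726 and 0.664 for the 7 erythroid markers measured and 0.640 and 0.787 for the 8 genes of dividing cells. It was 0.384 and 0.786 for the 5 megakaryocyte markers, 0.270 and 0.275 for the 7 eosinophil, basophil and mast cell markers and -0.638 and -0.279 for the 8 B cell markers. Their summed levels overlapped between the groups: the monocyte list had 1172 to 1376 CPM for WT, 1191 to 1493 for Jrt;Sost-het and 1156 to 1480 for Jrt;Sost-ko mice, and the B cell list 626 to 692, 580 to 786 and 623 to 840 CPM. No gene of these lists was called by edgeR in any comparison.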

How the data were processed

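RNA of 12 tibia shafts (4 mice in each of 3 groups, taken from the genotype labels) was sequenced in read pairs after poly(A) selection. The authors aligned the reads to GRCm38 with STAR and deposited raw counts per Ensembl gene. The submitters' processing notes also list bcl2fastq 2.20, Cufflinks, Cuffdiff and DESeq. The counting tool and its strand setting are not given in the sources used here, so reads of *Mpo* and of its antisense neighbour may not be told apart. The count matrix was used as deposited. The deposited tables of group comparisons, which hold fold changes and p-values of the authors, were not used.

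The 10 members, the lists of other genes and the tests were chosen with earlier results of these data known. For each comparison, edgeR 4.0.16 was run in R 4.3.3 on the 8 mice involved (filterByExpr, TMM, glmQLFit and glmQLFTest), and a Benjamini-Hochberg adjusted p under 0.05 over all genes tested was a call. CPM used TMM factors of the 12 libraries, and log2 CPM a prior count of 2. CPM per kb was divided by the joined exon length in GENCODE M21, which held 46574 of the 47069 gene identifiers (98.95%). Intervals at 95% are for the difference between groups and rest on the spread between mice. Their SE was the absolute log2 fold change divided by the square root of the F statistic. Counts of a member were at least 3538 in every mouse. The edgeR p-values set the difference between groups against the spread between these mice, which is moderated with information from all genes tested. They take in no variation beyond these mice.

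The text names the 10 members, *Sost* and, with members left out, the 5 genes with the highest correlation with each set. It also names genes of the azurophil, specific granule, mature neutrophil, granulocyte factor and granulopoiesis signal lists. Further lists were monocyte, eosinophil, basophil and mast cell, erythroid, B cell, megakaryocyte, keratinocyte, muscle, dividing cell and bone. Of the 8 erythroid genes listed, 7 were found by symbol. The tests were rerun with DESeq2 1.42.0, with limma-voom and sample quality weights (limma 3.58.1), with upper-quartile scaling or the size factors of DESeq2, without a filter, with a minimum of 10 counts per mouse, in 1 fit of all 12 mice, with scaling that left out muscle, keratinocyte, erythroid and neutrophil genes, without each mouse, and without WT mice 3 and 4. Promoter letters came from RefSeq (GRCm38.p6).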

Additional observations from a re-analysis of the deposited data

Results flagged for a closer look

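Of 75 groups of 4 mice examined (each gene, the early minus later value and each list of other genes in each genotype), 5 held a mouse whose gap to the next took a larger share of the group's range than Dixon's 95% limit for 4 values, where chance gives about 3.75, or 1 in 20. *Elane* in WT mice had a ratio of 0.873, with WT 4 low at 506 CPM against 629 to 647. *Lcn2* in Jrt;Sost-ko mice had a ratio of 0.865, with mouse 3 low at 814 CPM against 1205 to 1266. The signals of granulopoiesis in Jrt;Sost-het mice had 0.867, with mouse 3 high at 2002 CPM through *Cxcl12* (1825 CPM). The eosinophil, basophil and mast cell markers in the same group had 0.887, again with mouse 3 high, at 2748 CPM against 960 to 1162. The keratinocyte markers in Jrt;Sost-ko mice had 0.891, with mouse 3 high at 10.6 CPM against 6.62 to 7.05.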

How the results depend on the processing

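No granule gene was called under any of the 500 combinations of gene, comparison and alternative, where the lowest adjusted p was 0.277 and 7 had an unadjusted p under 0.05. The fitted sign stayed in 462 and turned in 38. No paired analysis was possible because the labels do not link mice of different groups, and the numbers used here only name the mice. Between the Jrt groups (Jrt;Sost-ko against Jrt;Sost-het), *Lcn2* turned to -0.000476 with upper-quartile scaling and *Mmp8* to 0.0598 with limma-voom. In Jrt;Sost-het against WT, *Mmp8* turned to 0.000193 with at least 10 counts in every mouse and to 0.00197 with the reduced scaling. In Jrt;Sost-ko against WT, *Mmp8* turned to 0.0630 with limma-voom.

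Leaving out each mouse in turn turned the sign of some genes, and for these the log2 fold changes between the Jrt groups lay between -0.0185 and 0.17 for *Elane*, -0.0123 and 0.133 for *Mpo*, -0.0205 and 0.158 for *Ctsg*, -0.167 and 0.0144 for *Ngp*, -0.0681 and 0.138 for *Lcn2* and -0.116 and 0.109 for *Mmp8*. In Jrt;Sost-het against WT they lay between -0.182 and 0.142 for *Ltf*, -0.271 and 0.0368 for *Camp*, -0.257 and 0.0613 for *Ngp*, -0.247 and 0.0617 for *Lcn2*, -0.174 and 0.207 for *Mmp8*, -0.235 and 0.0688 for *S100a8* and -0.234 and 0.0582 for *S100a9*. In Jrt;Sost-ko against WT they lay between -0.301 and 0.0161 for *Ltf*, -0.232 and 0.0704 for *Lcn2* and -0.176 and 0.199 for *Mmp8*. Genes that kept their sign without any 1 mouse lay between -0.231 (*S100a8*) and -0.0117 (*S100a9*) between the Jrt groups, between -0.307 (*Elane*) and -0.101 (*Ctsg*) in Jrt;Sost-het against WT and between -0.396 (*Camp*) and -0.0260 (*Ctsg*) in Jrt;Sost-ko against WT. Of these, *Elane* in Jrt;Sost-ko against WT lay between -0.238 and -0.0532.

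Over all genes, the Jrt groups compared with each other had 1 call, 15 with DESeq2, 0 with limma-voom and 0 to 3 without a mouse. Jrt;Sost-ko against WT had 1 call, 14 with DESeq2, 2 with limma-voom, 2 without a filter and 0 to 2 without a mouse. Jrt;Sost-het against WT had 0 calls throughout. Early minus later shifted with the genes it holds: without *S100a8* and *S100a9* the mean was -1.49 for WT, -1.67 for Jrt;Sost-het and -1.54 for Jrt;Sost-ko mice, and without *Lcn2* it was -2.28 for Jrt;Sost-het and -2.12 for Jrt;Sost-ko mice. With 4 mice per group the 95% intervals left room for folds of the members between 0.611 and 1.43, while each member had at least 3538 counts in every mouse.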
